A study of Mus musculus with 2 samples.

Results

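Papain cluster 7 was a group of cDC2s that the authors had set apart by mRNA in a library from immunized mice. Its members were the cells that carried number 7 in the deposited column of mRNA clusters, a label given to cDC2s only. They numbered 375 of the 6190 papain cells with such a label, which was 6.06% (exact 95% binomial interval 5.48% to 6.68%), and 375 of the 11067 cells with expression values in both libraries. The other 5815 labelled papain cells fell into the remaining 8 of 9 clusters and are the comparison used throughout.

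CITEseq, which reads mRNA and DNA-barcoded surface antibodies in the same cell, had been run on B6 mice, with no transgene or mutant allele named. The papain library came from the popliteal lymph nodes of mice given OVA plus papain, a protease allergen, in both rear footpads 1 day earlier. The naive library came from untreated B6 mice, and its site is given in different ways, as popliteal in the label of the extraction, as skin-draining in that of the tissue and as pooled skin-draining in the methods. Both were sorted for live MHCII-high CD11c+ B220- cells, so MHCII and CD11c had been used to choose the cells. With 1 library per condition there is no replicate check, no p-value is given, and treatment, library and lymph node site cannot be told apart. All 95% intervals cover counting error only. The libraries shared 2 cell barcodes, none of them in cluster 7, and no doublet caller was run.

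Conventional dendritic cells carry antigen from the skin to the draining lymph node and display its peptides to T cells. The cDC2 subset bears CD172a and presents mainly on MHC class II to CD4 T cells. Peptides are loaded onto class II molecules with the help of the invariant chain (Cd74) and the H2-DM exchange factor, and the transactivator CIITA switches the whole set of genes on. CD8a is best known as a coreceptor chain of cytotoxic T cells, and is also carried as a homodimer by some mouse dendritic cells, classically lymph node resident cDC1s.

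The surface readout rests on antibody barcodes, and those that separated or placed cluster 7 were the following, as the deposited feature table lists them.
CD8a: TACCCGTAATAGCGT
CD172a: GATTCCCTTGTAGCA
CD301b: CTTGCCTTGCGATTT
CD11b and CD24: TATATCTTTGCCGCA
Each barcode had 15 bases, and CD11b and CD24 were listed with the same one, so the values of these 2 antibodies cannot be told apart as proteins.

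Cluster 7 was the papain cluster with the most CD8a, in mRNA and on the surface. Cd8a reached 82.9 CPM (UMIs of the gene per 1000000 summed UMIs of a group, exact Poisson interval 75.4 to 90.9) against 9.03 CPM (8.43 to 9.67) in the other papain cDC2s, a log2 ratio of CPM + 1 of 3.06. In the other 8 papain clusters it lay between 2.56 CPM in cluster 1 and 18.5 CPM in cluster 9. At least 1 Cd8a UMI was found in 136 of 375 cells, or 36.3% (31.4% to 41.4%), against 7.34% (6.69% to 8.04%) of the other papain cDC2s. In papain Langerhans cells, the share was 3.97%, with a median depth of 18290 UMIs against 14281 in cluster 7. Thinned to 8856 UMIs per cell, which left out 2 cells of cluster 7 and 617 of the others, the shares were 28.4% in cluster 7, 5.09% in the other cDC2s and 2.15% in Langerhans cells. The single cell richest in Cd8a held 27 UMIs, 5.97% of the cluster's Cd8a UMIs.

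The CD8a antibody was not used for the mRNA clusters and set the same cluster apart. Its deposited value, on a natural log scale relative to the geometric mean of the antibodies in a cell, had a median of 1.16 in cluster 7 (quartiles 0.653 and 1.63). The other papain cDC2s had a median of 0.303 (quartiles 0.173 and 0.544). The medians of the other clusters ran from 0.206 in cluster 1 to 0.437 in cluster 2, so that the lower quartile of cluster 7 lay above the median of each of them. As a share of all antibody counts of a cell, CD8a had a median of 1.13% in cluster 7 and 0.172% in the other papain cDC2s. The value exceeded 1.31, the 95th percentile of the other papain cDC2s, in 157 of 375 cells, or 41.9% (36.8% to 47.0%). The largest such share among the other papain clusters was 9.72%, in cluster 9.

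**Figure D1:**
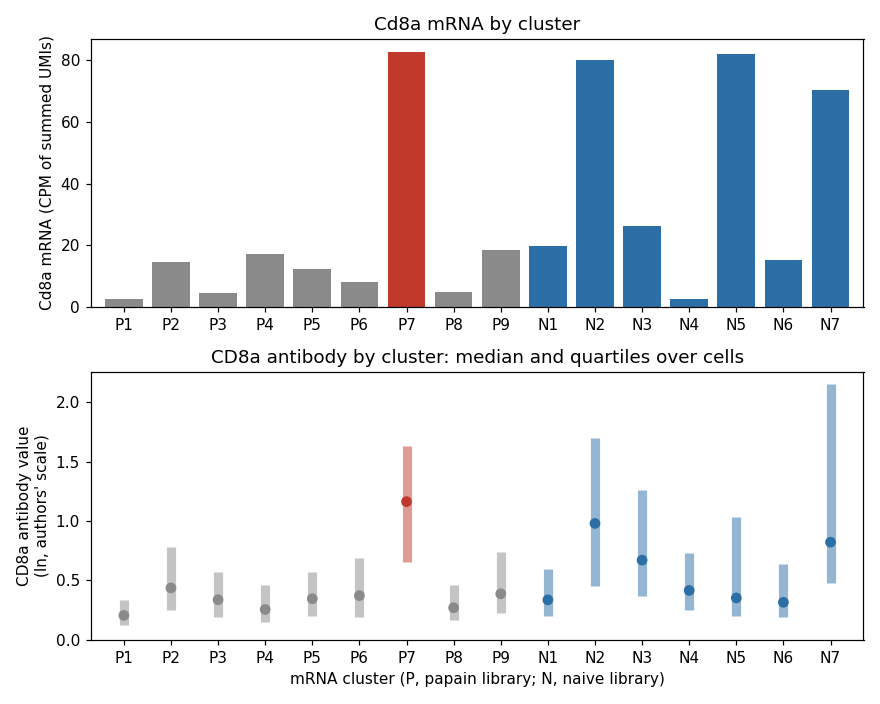
Cd8a mRNA in CPM (upper panel) and CD8a antibody value on a natural log scale (lower panel, points are medians and bars run between the quartiles over cells) for the 9 papain (P) and 7 naive (N) mRNA clusters. Papain cluster 7, in red, has 82.9 CPM and a median of 1.16, above all other papain clusters, and naive cluster 2 has 80.0 CPM and a median of 0.979.

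Within cluster 7, CD8a varied from cell to cell, and mRNA and antibody varied together. The antibody median was 0.858 in the 239 cells without a Cd8a UMI, 1.46 in the 67 cells with 1, and 1.88 in the 69 cells with 2 or more. Among the other papain cDC2s, the same medians were 0.284, 0.730 and 1.33, in 5388, 262 and 165 cells. Cells of cluster 7 without a detected Cd8a transcript thus had a higher antibody median than the other cDC2s with 1 Cd8a UMI. Depth differed little between these groups of cluster 7, with medians of 13944, 14706 and 15290 UMIs. The antibody median was 1.36 in the CD301b- cells of the cluster, 0.926 in its CD301bint cells and 0.874 in its CD301b+ cells, against 0.355, 0.335 and 0.268 in other papain cDC2s of the same classes.

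T cell receptor and CD3 transcripts were low in cluster 7. Of the 15 genes of the T cell list, only Cd8a and Tcf7 passed the expression filter. In cluster 7, Cd3e stood at 0.917 CPM (5 UMIs), Cd3d at 4.40 CPM, Trac at 3.85 CPM, Trbc2 at 4.58 CPM and the beta chain gene Cd8b1 at 2.75 CPM, against 1.04, 2.71, 3.68, 4.05 and 0.972 CPM in the other papain cDC2s. Trbc1 was the highest of the receptor and CD3 genes in cluster 7, at 7.33 CPM. Among papain clusters only cluster 9 had more Trbc1, 24.1 CPM. Cd4 had 0 UMIs, which allows up to 0.550 CPM. In the 290 papain droplets without a class, Cd8b1 stood at 187 CPM and Cd8a at 68.3 CPM, with Cd3d at 524 CPM. The authors' flag for a Cd3e or Trac UMI marked 18 cells of cluster 7, or 4.80% (2.87% to 7.48%), against 3.94% of the other papain cDC2s. Without those 18 cells the CD8a antibody median was 1.16.

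The cDC2 label came from antibodies, and the mRNA markers of cDC2s gave a mixed picture. All 375 cells were in the authors' cDC2 classes by construction, since only cDC2s carry an mRNA cluster label. The paper identified these classes by CD172a, XCR1 and CD326, so the values of these antibodies describe the cluster and do not test its label. The CD172a antibody median was 1.62, the lowest of the 9 clusters, the others running from 1.65 to 2.06. The XCR1 antibody, which marks cDC1s, had a median of 0.0777, within the range of the other clusters (0.0514 to 0.126), and the CD326 antibody, which marks Langerhans cells, a median of 0.349 (others 0.342 to 0.709). Among the cDC2 mRNA markers, Irf4 reached 90.2 CPM against 72.0 CPM in the other cDC2s, while Sirpa, which encodes CD172a, stood at 19.6 CPM against 72.9 CPM and was lower than in every other papain cluster (26.3 to 142 CPM). Mgl2 (0.183 CPM), Clec10a (0.183 CPM) and Itgam (0.183 CPM) were near 0, and Cd209a had 0 UMIs. Mgl2, which encodes CD301b, was also at 0.962 CPM in the other papain cDC2s. Xcr1 had 2 UMIs and Clec9a and Siglech 0, and Cd207 stood at 0.367 CPM. Other members of the cDC1 and plasmacytoid lists were expressed, and cluster 7 was the highest papain cluster for Batf3 (325 CPM against 236) and Tcf4 (284 CPM against 186), while Irf8 was at 82.5 CPM against 245 CPM. Most of the migratory programme was at levels like those elsewhere, with Ccr7 at 3741 CPM against 3188 CPM and Fscn1 at 2156 CPM against 2696 CPM. Of its 10 genes that passed, 0 were at least 1.5-fold higher and 1, Ccl22, was lower, beside 5.67% and 9.95% of all genes.

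CD301b, the lectin that defines the DC subset at the centre of the study, was low but not absent. The CD301b antibody median was 0.703 in cluster 7 (quartiles 0.341 and 1.48) and 1.60 in the other papain cDC2s. The authors' classes put 190 cells, or 50.7% (45.5% to 55.8%), in CD301b-, 112 in CD301bint and 73 in CD301b+, whereas 22.0% of the other papain cDC2s were CD301b-. Clusters 4 and 9 had larger CD301b- shares, 78.5% and 69.0%. Cluster 7 is therefore no single CD301b class.

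**Figure D2:**
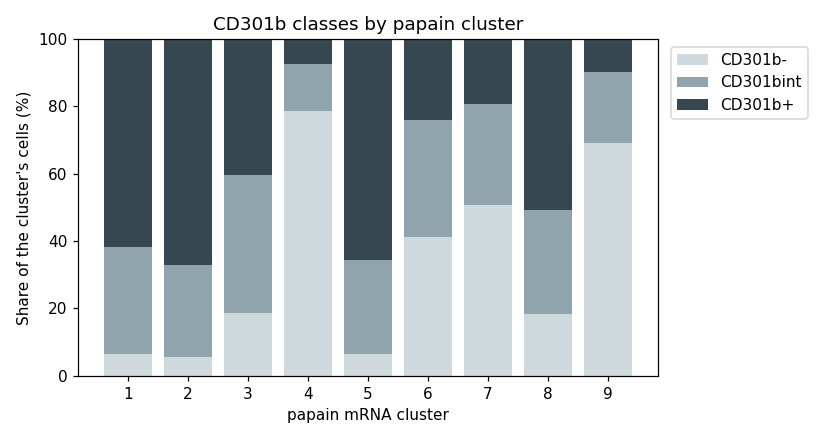
Share of cells (%) of each papain mRNA cluster in the authors' CD301b classes. Cluster 7 has 50.7% CD301b- cells, between cluster 6 (41.2%) and cluster 9 (69.0%).

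The remaining antibodies placed cluster 7 within the range of the other papain clusters. MHC_II had a median of 5.12 against 5.06 in the other papain cDC2s, and lay inside the range of the other clusters (4.77 to 5.32). CD11c had a median of 1.92 against 2.18, Ly-6C 0.336 against 0.276, CD103 0.101 against 0.101 and CD64 0.0678 against 0.0877. CD11b and CD24, which share a barcode in the feature table, had medians of 0.716 and 0.630 against 0.639 and 0.573.

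Across all genes, 2734 had at least 50 CPM in the higher of cluster 7 and the other papain cDC2s and a UMI in at least 10% of its cells. Of these, 155 (5.67%) were at least 1.5-fold higher in cluster 7 and 272 (9.95%) at least 1.5-fold lower, with a median log2 ratio of -0.03. With ratios centred on their median over all genes of 10 CPM or more (-0.09), 197 were higher and 204 lower, so at 1.5-fold the excess of lower genes depended on the scaling. At 2-fold, 44 were higher and 97 lower, and 62 and 82 with the same centring. The cluster was made from these transcripts, so the ratios describe it and test nothing. A UMI counts the 3' end of a transcript once, and the ratios compare groups for 1 gene at a time.

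The genes of MHC class II presentation were higher in cluster 7 than in the other papain cDC2s. All 9 of the 11 listed genes that passed the filter were at least 1.5-fold higher in cluster 7 (background 5.67%), with a median log2 ratio of 1.55, and H2-Oa (13.6 CPM against 3.37) and H2-Ob (1.83 CPM against 0.864) did not pass. Ciita, the transactivator, stood at 51.9 CPM (46.0 to 58.3) against 9.45 CPM. The peptide exchange genes H2-DMa, H2-DMb1 and H2-DMb2 stood at 179, 53.9 and 102 CPM against 36.0, 16.3 and 17.1 CPM. Because H2-DMb1 and H2-DMb2 are close copies, reads could have been split between them. The chains of the class II molecules themselves showed smaller ratios, with H2-Ab1 at 1679 CPM against 573 CPM (log2 ratio 1.55), H2-Aa at 1.44, H2-Eb1 at 1.46 and the invariant chain gene Cd74 at 1.12. The surface MHC_II value, given above, is a centred log value from cells sorted for high MHCII. MHC_II made up 87.6% of the pooled antibody counts of cluster 7 and 82.2% of those of the other papain cDC2s. Its difference between the groups therefore cannot be set against these transcript ratios. Class I genes did not share the pattern. Of 18 genes of MHC class I presentation that passed, 0 were 1.5-fold higher or lower, and the median log2 ratio was -0.08.

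Among papain clusters, this transcript pattern was shared with cluster 4. Cluster 4 was above cluster 7 in 8 of the 9 genes, for example in H2-Ab1 (3149 CPM against 1679), H2-Aa (5446 against 3976), H2-DMb2 (112 against 102) and Ciita (59.2 against 51.9). H2-DMa, at 144 CPM against 179 CPM, was the exception. In the other 7 clusters, H2-DMa did not exceed 47.7 CPM. Cluster 4 differed from cluster 7 in CD8a (antibody median 0.256, Cd8a 17.2 CPM), in CD301b (antibody median 0.307) and in Isg15, which stood at 602 CPM in cluster 4 and 41.2 CPM in cluster 7. In the pooled naive cDC2s, H2-DMa stood at 158 CPM, Ciita at 47.4 CPM and H2-DMb1 at 63.0 CPM, near the levels of cluster 7, while H2-Ab1 was higher, at 2259 CPM, and H2-DMb2 lower, at 70.8 CPM. The naive clusters differed widely, so the pooled levels do not describe each of them. Naive cluster 5 stood far above papain cluster 7, with H2-DMa at 703 CPM, Ciita at 189 CPM and H2-DMb2 at 315 CPM. Naive cluster 2 stood below papain cluster 7, with H2-DMa at 80.7 CPM and Ciita at 25.7 CPM.

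**Figure D3:**
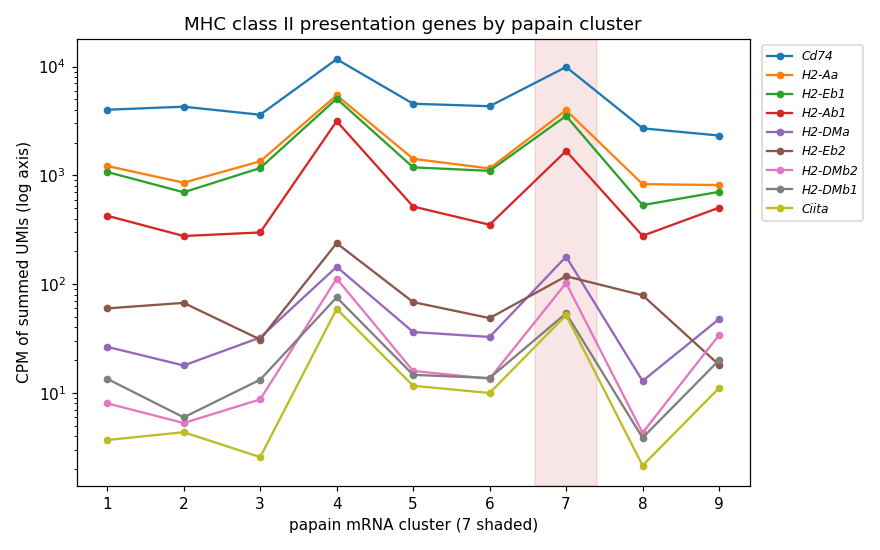
CPM of summed UMIs (log axis) of the 9 MHC class II presentation genes that passed the filter, by papain mRNA cluster, with cluster 7 shaded. Clusters 4 and 7 stand above the other clusters, and cluster 4 is above cluster 7 in all of them but H2-DMa, for example in H2-Ab1 with 3149 and 1679 CPM.

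Stretches of 3 promoters of this group, taken from RefSeq (GRCm38.p6), are shown because their genes were high together and because they carry the paired elements known from class II promoters. Capitals mark AACNGATG, part of the X box, and ATTGG, the Y box (CCAAT read on the other strand). All are on the plus strand of chromosome 17, upstream of the gene's start, at chr17:34145113-34145178, chr17:34153084-34153149 and chr17:34305763-34305827 in the order given.
H2-DMb2: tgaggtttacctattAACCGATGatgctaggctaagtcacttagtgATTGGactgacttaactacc
H2-DMb1: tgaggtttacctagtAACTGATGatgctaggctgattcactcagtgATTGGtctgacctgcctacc
H2-Eb1: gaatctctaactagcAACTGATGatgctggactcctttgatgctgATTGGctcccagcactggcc
The elements were 23, 23 and 22 bases apart, and the H2-DMb2 and H2-DMb1 stretches were identical at 57 of 66 bases. The letters AACNGATG were chosen after looking at these promoters. Searched on both strands of 300-base promoters, both elements occurred in 4 of the 8 listed genes with a promoter in the table, and in 0.88% of all 32851 promoters. CCAAT alone occurred in 37.4% of all promoters. A match is a description of the letters and no evidence of binding.

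The leading genes outside the class II group were varied. Crispld2, which encodes a secreted protein, stood at 199 CPM (188 to 211) against 35.6 CPM, and was found in 73.9% of the cells against 19.2% of the other papain cDC2s (65.0% and 14.6% when thinned). Stat4, a transcription factor of IL-12 signalling, stood at 253 CPM against 77.7 CPM, and Tcf7, which encodes TCF-1, at 144 CPM against 44.8 CPM. Dkk2, a Wnt pathway antagonist, stood at 52.4 CPM against 9.68 CPM. The beta tubulin gene Tubb2b stood at 458 CPM against 97.6 CPM. Cd24a (log2 ratio 1.81), Pcyt1a of phosphatidylcholine synthesis (1.79), the glycosyltransferase gene Gcnt2 (1.69), the scaffold gene Grasp (1.65) and 2610528A11Rik (1.88) complete the 15. In 10 of the 15, cluster 7 was the highest of the 9 papain clusters, and in the other 5, H2-DMb2, Ciita, Pcyt1a, H2-DMb1 and Grasp, cluster 4 was higher.

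**Figure D4:**
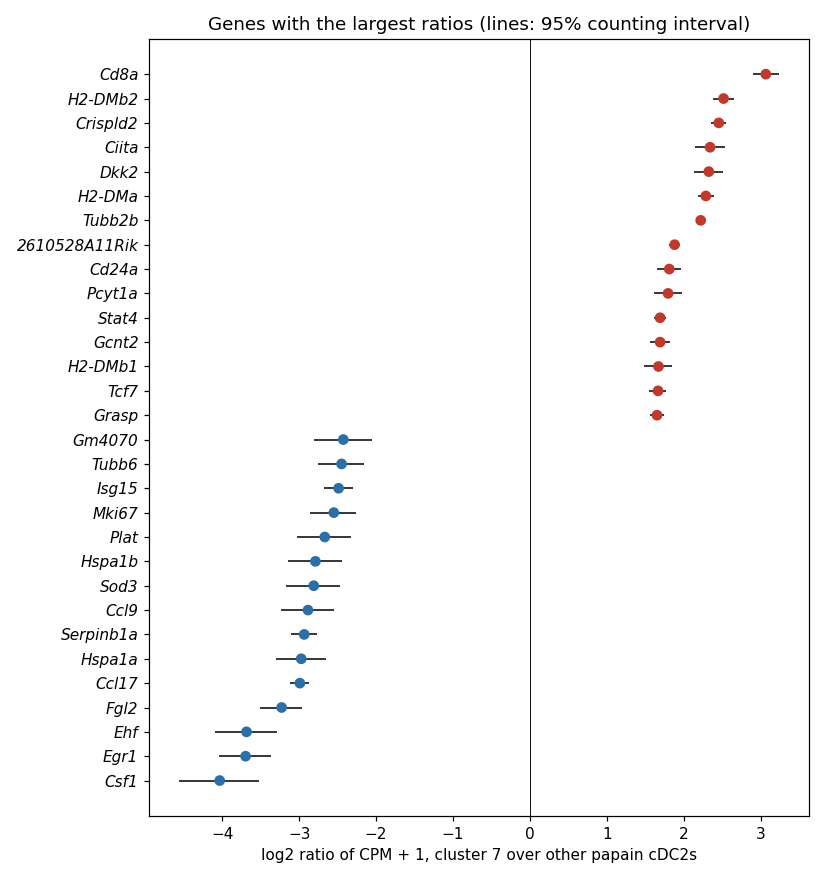
Log2 ratio of CPM + 1 of cluster 7 over the other papain cDC2s for the 15 top and 15 bottom genes out of 2734, with lines for the 95% counting interval. The ratios run from 3.06 for Cd8a to -4.03 for Csf1.

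On the lower side stood growth factor, chemokine, stress and interferon response genes. Csf1, which encodes the macrophage growth factor M-CSF, stood at 3.67 CPM (2.24 to 5.66) against 75.3 CPM, with a UMI in 15 of 375 cells against 32.0% of the other papain cDC2s. Ehf, an ETS-family transcription factor gene, stood at 7.52 CPM (5.39 to 10.2) against 108 CPM. The immediate early gene Egr1 stood at 12.1 CPM (9.36 to 15.4) against 169 CPM, and only cluster 6, at 7.24 CPM, was lower. Further genes were Fgl2 (19.2 CPM against 189), Serpinb1a (54.6 against 424), Sod3 (10.6 against 80.6), Plat (10.4 against 71.7), Tubb6 (15.8 against 90.5), Gm4070 (8.98 against 52.7) and the proliferation marker Mki67 (15.6 against 96.1). Cluster 7 was the lowest papain cluster in 12 of these 15 genes, the exceptions being Egr1, Ccl9 and Mki67. Of 4 genes of the cell cycle list that passed, 2 were lower and 0 higher, with a median log2 ratio of -0.67. Over the whole list the genes were mixed. Pcna, Mcm2 and Mcm3 were lowest in cluster 7. In Hmgb2, Tyms, Stmn1, Nusap1, Cenpa, Mcm7 and Rrm2, only cluster 9 was above it. Whether cluster 7 proliferated less was not tested, and Mki67 alone does not show it.

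Chemokine transcripts were lower as a group. Of 7 chemokine genes that passed the filter, 6 were at least 1.5-fold lower in cluster 7 and 0 higher, with a median log2 ratio of -2.31, beside a background of 9.95% of genes lower. Ccl17, a ligand of the type 2 T cell receptor CCR4, stood at 98.3 CPM (90.1 to 107) against 788 CPM, and the other CCR4 ligand Ccl22 at 800 CPM against 2010 CPM. Cluster 4 shared the low Ccl17, at 115 CPM, and the other clusters reached 1296 CPM. In Ccl22, cluster 4 was below cluster 7, at 447 CPM. Ccl9 (11.2 CPM against 89.0), the neutrophil chemokines Cxcl1 (86.2 against 441) and Cxcl2 (33.4 against 169), and Ccl5 (3381 against 7911) made up the rest. Cluster 9 was lower in Ccl9 (5.92 CPM), and cluster 6 in Cxcl1 (68.7 CPM) and Cxcl2 (32.5 CPM), while Ccl5 was lowest in cluster 7.

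Interferon-stimulated transcripts were lower in 10 of 14 genes that passed, with 0 higher and a median log2 ratio of -1.11, beside 9.95% of all genes lower. Isg15, a ubiquitin-like modifier, stood at 41.2 CPM (36.0 to 47.0) against 236 CPM and was lower than in each of the other 8 papain clusters (60.7 to 602 CPM). Slfn5 (25.8 CPM against 121), the antiviral GTPase gene Mx1 (22.4 against 68.2) and the transcription factor gene Irf1 (137 against 376) went the same way. The heat shock genes Hspa1a and Hspa1b, which are near-identical copies whose reads could be exchanged, stood at 12.8 and 10.4 CPM against 108 and 78.1 CPM, and 3 of 9 heat shock genes that passed were lower, against 9.95% of all genes. Of 20 immediate early genes, 6 were lower and 0 higher (background 9.95%, list median log2 ratio -0.41), Dusp2 (139 CPM against 468) being the next after Egr1.

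Genes of the list of costimulatory and inhibitory ligands differed in both directions. Of 14 that passed, 6 were higher and 3 lower, beside 5.67% and 9.95% of all genes. Cd80, a ligand of CD28, stood at 150 CPM against 61.2 CPM and was higher than in every other papain cluster (21.7 to 88.8 CPM), whereas Cd86 was at 351 CPM against 248 CPM, under 1.5-fold. Tnfrsf4 (OX40, 325 CPM against 149), Slamf7 (284 against 143) and Cd200 (249 against 142) were higher. Cluster 4 was above cluster 7 in Tnfrsf4 (380 CPM) and Cd200 (445 CPM). Cd40, the receptor of the pathway the study followed in CD301b+ DCs, stood at 198 CPM (187 to 210) against 756 CPM, and Tnfsf9 (48.4 against 174) and Icam1 (129 against 274) were also lower. In the NF-kB list, 3 of 18 genes were lower, a share not far from the background of 9.95%, and the median log2 ratio was -0.26. The 3 were Nfkbiz (111 CPM against 419), Nfkbid (69.7 against 177) and Tnfaip3 (294 against 632). Cluster 6 was below cluster 7 in all 3 (50.5, 64.0 and 194 CPM). Il2, the cytokine of the study, was at 3.67 CPM in cluster 7 (20 UMIs, 2.24 to 5.66) and 4.26 CPM in the other papain cDC2s, a difference not detectable at this depth.

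Ribosomal and respiratory chain genes showed no such shift. No gene was 1.5-fold apart among 26 ribosomal protein genes (median log2 ratio 0.16), 25 nuclear-encoded respiratory chain genes (-0.02) or 9 mitochondrially encoded genes (-0.09). Of 9 glycolysis and hypoxia genes, 5 were lower (background 9.95%), with a median log2 ratio of -0.59, among them Eno1 (17.8 CPM against 50.6) and Tpi1 (19.6 against 55.1). Of 14 lysosomal genes, 5 were lower and 0 higher (background 9.95% and 5.67%), while the list median log2 ratio was only -0.12. Among the 5 were Psap at 97.2 CPM against 404 CPM and Cstb at 141 CPM against 551 CPM. Among 24 lineage transcription factor genes, 4 were higher and 3 lower, beside 5.67% and 9.95% of all genes, the lower share being not far from its background. Runx3 (154 CPM against 65.8), Runx2, Nfil3 and Tcf4 were higher and Ehf, Irf8 (82.5 CPM against 245) and Rbpj lower. Cluster 9 was above cluster 7 in Runx3 and Nfil3 (182 CPM each), and cluster 4 in Runx2 (80.9 CPM against 74.2). Depth was alike in both groups, with a median of 14281 UMIs and 3165 genes per cell in cluster 7 and 14826 UMIs and 3339 genes in the others, while single clusters ranged from 7249 to 30020 UMIs. The median share of mitochondrial UMIs was 2.85% against 2.71%.

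The differences were also present within each CD301b class. Compared with other papain cDC2s of the same class, all 30 genes kept their direction and a ratio of at least 1.5-fold in each of the 3 classes. The 30 genes were chosen for their ratios over these same cells, so this describes them and is no separate test. Cd8a stood at 118 CPM in the CD301b- cells of cluster 7 against 14.5 CPM in the other CD301b- cells, at 38.0 against 10.4 CPM in CD301bint cells and at 64.1 against 6.57 CPM in CD301b+ cells. The class II genes had larger levels in the CD301b- cells of the cluster, H2-Ab1 for example standing at 2208 CPM there, 1414 CPM in CD301bint and 770 CPM in CD301b+ cells, against 1394, 456 and 385 CPM in the other papain cDC2s. Csf1 stayed between 2.22 and 8.24 CPM in the 3 classes of cluster 7 and between 31.9 and 90.7 CPM in the others.

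By the rank order of 4133 genes, cluster 7 was most like papain clusters 3 (Spearman rho 0.94), 2 (0.94) and 5 (0.93), with cluster 4 at 0.92, and least like cluster 8 (0.81). These correlations run across genes of 1 library that share most of their level, and describe an order only. Against cluster 2, 5.79% of 2710 genes were at least 1.5-fold higher in cluster 7 and 11.1% lower. Against cluster 3, 6.79% of 2636 genes were at least 1.5-fold higher in cluster 7 and 7.4% lower. Against cluster 4, 7.94% of 2734 genes were higher and 12.8% lower. Genes named from single clusters were chosen after their values were seen. Those highest against cluster 4 were Calm4 (132 CPM against 12.9), Gyg (733 against 131) and Efnb2 (105 against 18.3), and those lowest were Ly6e (3.85 CPM against 77.7), Rnase6 (3.67 against 74.0) and the interferon regulator Irf7 (3.12 against 63.5).

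In the naive library, cluster 2 (432 cells) was the most like cluster 7, with a Spearman rho of 0.90, and it was also the naive cluster with the highest CD8a antibody median, 0.979 (quartiles 0.456 and 1.70). Its Cd8a level was 80.0 CPM (73.1 to 87.4), with Cd3e at 0.321 CPM. Naive cluster 5 had 82.1 CPM of Cd8a and an antibody median of 0.353, with an upper quartile of 1.04. Its CD8a value exceeded 1.31, the papain cutoff used above, in 22.4% of cells, against 39.1% in naive cluster 2. Naive cluster 7 had a median of 0.822, with a Cd3e or Trac UMI in 56.0% of its 50 cells. The antibody scale depends on all antibodies of a cell, and naive cells had more antibody counts, with a median of 8403 in naive cluster 2 against 3241 in papain cluster 7.

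Papain cluster 7 and naive cluster 2 differed in other respects. Of 2689 genes, 19.9% were at least 1.5-fold higher in cluster 7 and 13.6% lower. Fabp4, a fatty acid binding protein gene, stood at 84.7 CPM against 1.77 CPM, Tubb2b at 458 CPM against 49.8 CPM and the interferon-induced Ifitm3 at 86.9 CPM against 8.84 CPM. Egr1 stood at 12.1 CPM against 237 CPM, the cytokine gene Tnf at 3.48 CPM against 76.0 CPM and Ehf at 7.52 CPM against 144 CPM. CD301b also differed, with an antibody median of 1.60 in naive cluster 2. Over all naive cDC2s pooled, 9 of the 15 low genes lay between cluster 7 and the other papain cDC2s, for example Csf1 at 36.1 CPM and Ccl17 at 344 CPM. Isg15 alone was under the level of cluster 7, at 40.1 CPM against 41.2 CPM, a gap inside the counting interval. The other 5, Ehf (161 CPM), Egr1 (220 CPM), Hspa1a (166 CPM), Hspa1b (141 CPM) and Ccl9 (104 CPM), were higher in naive cDC2s than in both. Cluster 7 was below every naive cluster in 8 of the 15 low genes and above every naive cluster in 9 of the 15 high genes, of which Cd8a, at 82.9 CPM against 82.1 CPM in naive cluster 5, differed by less than its counting interval.

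**Figure D5:**
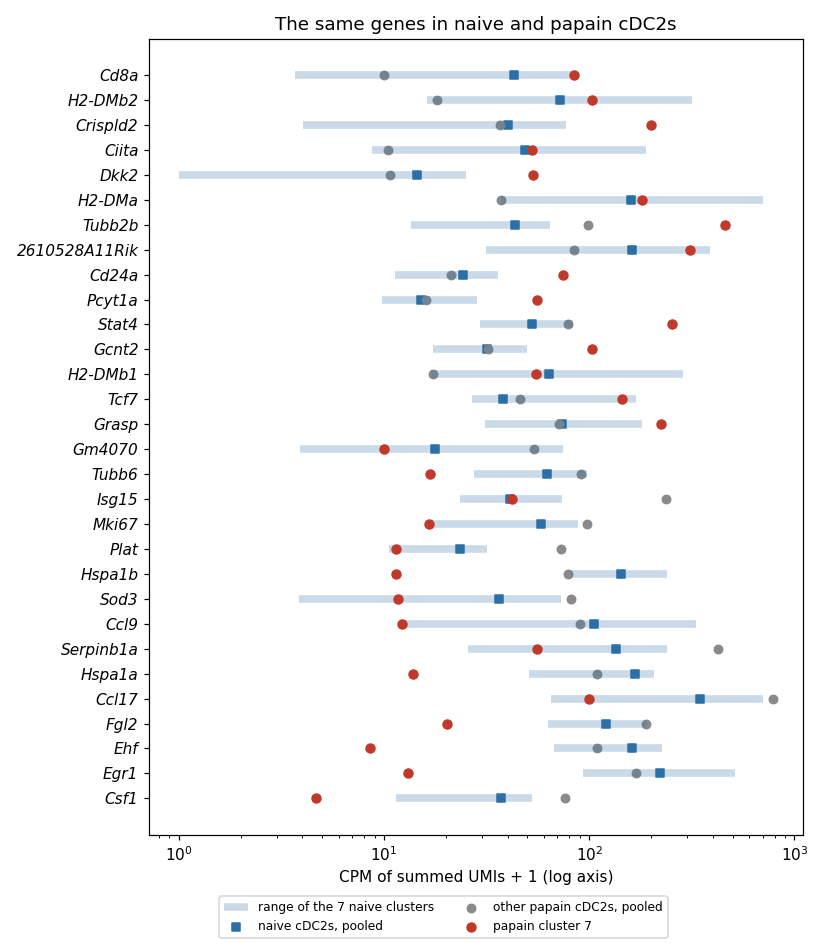
CPM of summed UMIs + 1 (log axis) of the 30 leading genes in papain cluster 7, the other papain cDC2s and the pooled naive cDC2s, with bars for the range over the 7 naive clusters. Isg15 in cluster 7 (41.2 CPM) lies near the pooled naive level (40.1 CPM), whereas Ehf (7.52 CPM) lies below all naive clusters.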

How the data were processed

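The authors had processed the reads with Cell Ranger 3.0.1 and Partek on mm10, per the labels. The deposited expression values are log2 values of CPM + 1, from which UMIs were recovered. Among values of at most 50 UMIs, 100% came out whole to within 0.02. The deposited gene number is in counts, the deposited mitochondrial value in percent and the deposited total is a score that adds up log2 values. Depth and mitochondrial shares here come from UMIs. The authors gave antibody values as natural log values, centred in each cell, and antibody counts were recovered from them. Groups came from the labels and clusters from the authors' column. UMIs were summed by group and scaled to 1000000. Intervals at 95% were exact Poisson for CPM and exact Clopper-Pearson for shares. The text names the 15 highest and 15 lowest ratios, all 12 antibodies and list members with large ratios or a defining role. The cluster and the gene lists were chosen with earlier results of these data known. The scripts, run in Python with numpy, pandas and scipy, were tested on simulated data. Another scaling, other filters and fewer cells were tried as alternatives. The expression range was 2682 to 57150 UMIs per papain cell and 3637 to 57378 per naive cell.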

Additional observations from a re-analysis of the deposited data

How the results depend on the processing

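No paired analysis was possible because each condition had 1 library and no replicate number. Of 282 recomputed values, 0 reversed direction. This says little, since counts, shares and antibody medians among them have no direction, and a larger pseudocount cannot reverse a ratio. Over the 30 leading genes and 7 alternative settings, 150 of 210 ratios stayed within their counting interval. The pseudocount of 10 CPM, which brings every ratio closer to 0, moved 29 of 30 out of it. With a limit of 10 CPM, 383 genes were higher and 891 lower in cluster 7, and with no limit 1080 and 2174, since more genes entered (7142 and 18018). With tertiles of the CD301b antibody value in place of the authors' classes, the lowest class held 60.5% of cluster 7. Over cells with at least 2005 antibody counts, the medians of the other papain cDC2s were 1.72 for CD301b and 1.95 for CD172a. Relative to the median ratio of all genes, a shift of -0.09 on the log2 scale, 197 genes were higher and 204 lower. Without the cells flagged for Cd3e or Trac, a step extended to antibodies and CD301b classes after seeing the data, gave 158 higher and 276 lower genes. With 1 library per condition and transcripts such as Cd8a found in a minority of cells, differences between mice and small differences in low genes were beyond this depth.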
